A study of Mus musculus with 4 samples.

Results

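H3K4me3 regions that differed between non-obese diabetic (NOD) and C57BL/6 (B6) embryonic stem (ES) cells were examined by their signal, to see which genes lay at the strongest of them. The members were all regions on chromosomes 1 to 19 of 2 region lists, NOD over B6 and B6 over NOD. These were 11830 NOD-enriched and 7519 B6-enriched regions, 19349 of the 31315 regions that the series holds for both marks. The ES cells came from blastocysts of C57BL/6 and NOD mice and were grown with inhibitors of MEK and GSK3 (2i). Neither a genetic change nor a treatment other than 2i was named for these samples, both strains had 2i, and the ES cell line behind each library was not given in the sources used here. There was 1 H3K4me3 library per strain, read as 50 bp single-end tags, so the values below compare 2 libraries and carry no test between strains. Intervals are exact 95% intervals and cover counting error only.

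Histone H3 trimethylated at lysine 4 (H3K4me3) is laid down at promoters by SET1 and MLL methyltransferases, which are drawn to unmethylated CpG-rich DNA. Active promoters of ES cells carry it, and promoters of silent developmental genes carry it together with the Polycomb mark H3K27me3. Acetylation of histone H3 at lysine 27 (H3K27ac) marks active enhancers and promoters. Many C2H2 zinc-finger genes sit in tandem clusters, some of which differ between mouse strains. They encode mostly DNA-binding proteins, among them many repressors of retroelements. The C2H2 genes counted below were not sorted by function.

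The header totals were 22750449 tags for NOD and 14791364 tags for B6. The signal of a region is its tag number per 10000000 tags of its library, so it grows with the width of the region. A region was listed only where its own library had at least 4-fold more tags than the other, and a gene missing from both lists may carry the mark equally in both. Per the file headers 2.66% of NOD tags and 1.32% of B6 tags fell in listed regions. The part of this difference in the higher NOD values below was not tested. ES cell markers were looked up with a 1 kb window around transcription start sites (TSSs). Of 8 markers, Pou5f1, Sox2 and Zfp42 had a NOD-enriched region and Esrrb a B6-enriched one. Of 8 fibroblast feeder markers, none had a NOD-enriched region and Col1a1 had a B6-enriched one of 26 tags against 0. Of 6 primitive endoderm markers, Gata4 and Gata6 had a NOD-enriched region, and of 6 trophectoderm markers Krt8, Krt18 and Gata3 had one, with Gata3 also in the B6 list. Over all 20558 autosomal protein-coding genes, 8.71% had a NOD-enriched and 5.46% a B6-enriched region by this rule. The lists cannot show whether the remaining markers carry the mark.

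The strongest signals stood far above the rest. The median region had a signal of 13.2 in the NOD list and 13.5 in the B6 list, while the highest reached 1369.6 and 494.2. The 100 highest regions held 12.3% of the summed signal of the NOD list and 9.84% of that of the B6 list. A signal of at least 300 was found in 39 NOD-enriched and 2 B6-enriched regions. The last region inside the 100 highest and the first outside it had signals of 168.3 and 167.9 in NOD, and 76.4 and 75.7 in B6. C2H2 zinc-finger genes recurred among the strongest NOD-enriched regions, and CpG-rich regions of proximal chromosome 12 among the strongest B6-enriched ones. In bulk cells a lower signal and a smaller share of marked cells cannot be told apart.

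Promoters from both groups are printed here because those of 1 chromosome resemble one another. The chromosome 12 promoters hold more CG dinucleotides than those of chromosomes 2 and 4, but the chromosome 12 group was picked as CpG-rich. The difference is therefore no property of the 2 lists. Nor does it separate zinc-finger genes from others. On chromosome 12, 5730507C01Rik and Gm21297 are C2H2 genes, and on chromosome 2 Gm14403 is noncoding. Each line gives the 250 bases before the start of the gene, 5′ to 3′, from RefSeq promoters of GRCm38.p6, with CG dinucleotides in capitals. Gm14403 (chr2:177497976-177498225, plus strand) and Zfp970 (chr2:177464492-177464741, plus strand) lie close together on chromosome 2, Gm13212 (chr4:145584950-145585199, plus strand) and Zfp985 (chr4:147553027-147553276, plus strand) lie in different stretches of chromosome 4, and all 4 had NOD-enriched regions.
Gm14403: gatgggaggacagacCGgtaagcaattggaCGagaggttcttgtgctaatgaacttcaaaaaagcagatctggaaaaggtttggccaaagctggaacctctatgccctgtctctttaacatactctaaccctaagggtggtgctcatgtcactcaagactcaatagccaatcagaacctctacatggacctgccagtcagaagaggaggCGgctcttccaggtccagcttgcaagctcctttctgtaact
Zfp970: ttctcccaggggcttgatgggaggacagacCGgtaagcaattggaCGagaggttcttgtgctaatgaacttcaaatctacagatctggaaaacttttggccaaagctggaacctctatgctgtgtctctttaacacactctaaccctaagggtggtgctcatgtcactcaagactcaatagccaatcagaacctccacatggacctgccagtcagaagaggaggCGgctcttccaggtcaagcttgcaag
Gm13212: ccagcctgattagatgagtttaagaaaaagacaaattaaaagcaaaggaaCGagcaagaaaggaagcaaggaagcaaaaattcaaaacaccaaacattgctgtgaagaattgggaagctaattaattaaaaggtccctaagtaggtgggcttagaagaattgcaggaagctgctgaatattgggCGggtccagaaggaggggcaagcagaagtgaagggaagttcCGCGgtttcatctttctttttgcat
Zfp985: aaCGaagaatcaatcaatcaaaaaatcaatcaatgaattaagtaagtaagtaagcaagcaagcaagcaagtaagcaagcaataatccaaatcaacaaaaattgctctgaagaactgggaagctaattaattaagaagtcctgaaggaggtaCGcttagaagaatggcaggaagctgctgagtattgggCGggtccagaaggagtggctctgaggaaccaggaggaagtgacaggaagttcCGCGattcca

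The next 3 are from proximal chromosome 12, and the last is the class I gene Gm8909 on chromosome 17. They lie at chr12:18514260-18514509 (5730507C01Rik, plus strand), chr12:23010244-23010493 (2410018L13Rik, minus strand), chr12:24252439-24252688 (Gm21297, minus strand) and chr17:36168538-36168787 (Gm8909, minus strand).
5730507C01Rik: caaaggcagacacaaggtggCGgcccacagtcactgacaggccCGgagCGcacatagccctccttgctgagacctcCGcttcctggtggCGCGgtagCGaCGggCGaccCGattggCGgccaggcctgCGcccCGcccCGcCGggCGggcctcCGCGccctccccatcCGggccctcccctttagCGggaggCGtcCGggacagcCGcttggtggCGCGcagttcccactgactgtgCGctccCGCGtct
2410018L13Rik: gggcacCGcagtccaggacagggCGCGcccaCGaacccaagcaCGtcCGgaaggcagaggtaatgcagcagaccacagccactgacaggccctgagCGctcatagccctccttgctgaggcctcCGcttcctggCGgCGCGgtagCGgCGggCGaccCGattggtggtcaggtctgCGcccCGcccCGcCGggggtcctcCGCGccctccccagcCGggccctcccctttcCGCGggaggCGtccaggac
Gm21297: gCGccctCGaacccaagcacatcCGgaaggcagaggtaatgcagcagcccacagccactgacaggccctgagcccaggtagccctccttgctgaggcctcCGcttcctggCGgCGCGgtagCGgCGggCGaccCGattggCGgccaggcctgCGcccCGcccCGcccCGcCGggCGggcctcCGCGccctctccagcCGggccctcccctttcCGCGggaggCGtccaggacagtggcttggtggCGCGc
Gm8909: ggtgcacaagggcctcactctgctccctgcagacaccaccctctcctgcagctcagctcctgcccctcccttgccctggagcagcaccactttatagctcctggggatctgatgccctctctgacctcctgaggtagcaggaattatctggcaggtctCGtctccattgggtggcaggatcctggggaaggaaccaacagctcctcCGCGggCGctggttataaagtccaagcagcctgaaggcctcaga

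The chromosome 2 pair was identical at 84.5% of aligned positions and the chromosome 4 pair at 69.9%. Within the chromosome 12 group identity ran from 62.5% to 78.1%. Aligned the same way, the 23 pairs of these 8 promoters from different chromosomes had 40.8% to 51.7%. Gm14403 and Zfp970 had 3 CG dinucleotides each, Gm13212 had 4 and Zfp985 had 5, against a median of 6 over 32851 promoter entries. The chromosome 12 promoters had 28, 25 and 26, and Gm8909, also B6-enriched, had 4. The GC-box letters GGGCGG occurred on either strand in both chromosome 4 promoters and in all 3 chromosome 12 promoters, and in neither chromosome 2 promoter. They occurred in 35.7% of all promoter entries of 300 bases. Tags from such related copies could be assigned to the wrong copy, so the values of single genes among them are uncertain.

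Zinc-finger genes of chromosome 4 held the highest signals of the NOD list. The highest region, chr4:145431999-145436543, lay in an intron of Gm42346, a predicted C2H2 gene, and held 3116 NOD tags against 99 B6 tags. Its signal was 1369.6 in NOD and 66.9 in B6 with a ratio of 20.5 (16.8 to 25.3). The second, chr4:145408824-145414100, lay at the start of the same gene with 2018 NOD tags and 50 B6 tags, signals of 887.0 and 33.8. Both overlapped a NOD-enriched H3K27ac region. Gm13212, another C2H2 gene of this stretch, had a signal of 417.1 in NOD and 98.0 in B6 at chr4:145584572-145587020. These 3 regions lay within 0.178 Mb, in which 28 NOD-enriched regions were listed and 0 of the B6 list. Over the whole NOD list 51.0% of regions had a B6-enriched region within 100 kb, so 0 in a stretch this short is not unusual.

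On chromosome 2, 7 of the 100 highest NOD-enriched regions lay within 0.428 Mb (chr2:177073077-177500593), where the NOD list had 30 regions and the B6 list had 0. The ends of the stretch were set by these NOD-enriched regions, and no background was counted for a 0 at this length. This stretch has 18 annotated genes, of which 2 are protein-coding and both of these encode C2H2 proteins, and 1 of the 7 regions, that of Zfp970, lay at the start of one. Near Gm14407, 10.6 kb from its start, the signal was 686.1 in NOD and 150.8 in B6 over chr2:177073077-177077357. At Gm41986, a noncoding gene, it was 643.5 and 80.5 over 7740 bp, the widest of the 100. A further region in introns of Gm14412 and Gm41986 had 586.8 and 89.9. At Gm14403 it was 580.6 in NOD and 89.2 in B6, from 1321 and 132 tags, a ratio of 6.51 (5.44 to 7.84). Zfp970 reached 365.3 against 67.6, and LOC115489547 reached 280.0 from 637 NOD tags and 32 B6 tags. The B6 library thus also had tags at these genes, at a lower level. Of the 7 regions, 6 overlapped a NOD-enriched H3K27ac region.

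Zinc-finger genes outside these stretches followed. Zfp229 on chromosome 17 had a signal of 543.3 in NOD and 113.6 in B6 with a ratio of 4.78 (4.07 to 5.65). Zfp961 on chromosome 8 had 506.4 and 102.1, a ratio of 4.96 (4.18 to 5.92). Zfp985 on chromosome 4, named for the sequence printed above, had 357.8 and 79.1. These ratios lay near the 4-fold limit of the lists. C2H2 genes, counted as genes whose protein holds at least 3 C2H2 motifs, were at 11% (5.62 to 18.8) of the 100 highest NOD-enriched regions and at 0.828% (0.673 to 1.01) of all 11830. Among the 100 highest NOD-enriched regions with a ratio of at least 8 the share was 3% (0.623 to 8.52), an interval that reaches the share of the whole list. In the B6 list they were at 6.00% (2.23 to 12.6) of the 100 highest and at 0.785% (0.598 to 1.01) of all 7519. Among the 25 highest, 28% of the NOD list (12.1 to 49.4) and 12% of the B6 list (2.55 to 31.2) were at such genes. The intervals of the 2 lists overlapped in each case.

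Counted by gene, 89 of 670 autosomal C2H2 genes (13.3%) had a NOD-enriched region within 1 kb of a TSS, and 60 (8.96%) a B6-enriched one. Over all 20558 autosomal protein-coding genes the same counts gave 8.71% for NOD and 5.46% for B6. The C2H2 shares lay above these backgrounds in both lists, although neighbouring genes can share a region. A NOD signal of at least 100 was found at 15 C2H2 genes (2.24%) and at 84 of the 19888 other protein-coding genes (0.422%). For B6 these were 4 (0.597%) and 22 (0.111%). By contrast, 8 of 1454 olfactory and vomeronasal receptor genes (0.550%) had a NOD-enriched region and 10 (0.688%) a B6-enriched one, none above a signal of 23.3.

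Zfp42 was the pluripotency gene with the highest signal. It encodes REX1, a zinc-finger protein used as a marker of naive ES cells. Over chr8:43298930-43304942, a stretch of 6012 bp inside the gene that covers the most internal of its annotated starts, 1436 NOD tags and 77 B6 tags were counted. The signals were 631.2 and 52.1, a ratio of 12.1 (9.64 to 15.5). A second region of 500 bp, just downstream of a start nearer to the 5′ end, had 436.0 in NOD and 108.8 in B6 with a ratio of 4.01 (3.39 to 4.76). The ratio was therefore larger over the internal stretch than near the 5′ end of the gene, and the intervals of the ratios did not overlap.

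Among the other high NOD-enriched regions at gene starts, Ly6e, a GPI-anchored surface protein induced by interferon, had a signal of 593.8 in NOD and 46.0 in B6. That was a ratio of 12.9 (10.1 to 16.7) from 1351 and 68 tags at chr15:74955887-74959318. Slc37a1, a glucose-6-phosphate transporter, had 459.8 and 110.2 in a region shared with the start of Gm30139. Gm41131, a predicted gene, had 457.1 and 48.0. Aqp3, a water and glycerol channel, had 364.8 and 85.2. Slc37a1 and Aqp3 had ratios close to the 4-fold limit, 4.17 (3.53 to 4.95) and 4.28 (3.55 to 5.21), while Gm41131 stood at 9.52 (7.48 to 12.3).

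Nearly as many of the strongest NOD-enriched regions lay away from any gene start. An intronic region of Ipp, at chr4:116527887-116533438 and 23.1 kb from the nearest start, had 1450 NOD tags and 13 B6 tags. Its signals were 637.4 and 8.79, a ratio of 72.5 (42.3 to 136.5), and it overlapped a NOD-enriched H3K27ac region. An intergenic region 12.6 kb from Bcdin3d, an RNA methyltransferase, had 525.7 and 11.5, and an intronic region of Slc22a22, an organic anion transporter, had 475.6 and 10.8. A region 33.1 kb from Vpreb2, a surrogate light chain gene of B cell precursors, had 360.9 and 10.8. These 4 had B6 signals under 12 and ratios of 33.4 or more.

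Other high NOD-enriched regions lay away from starts with a higher B6 level. They were 14.9 kb from Stac2 (686.1 in NOD and 79.1 in B6), 4.58 kb from Rpph1, the RNA of RNase P (514.3 and 27.04), and in an exon of the noncoding D930019O06Rik (469.4 and 85.2). The remaining ones lay 5.46 kb from the C2H2 gene Zfp280b (429.9 and 75.7) and 16.5 kb from C330002G04Rik (404.4 and 69.6).

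**Figure D1:**
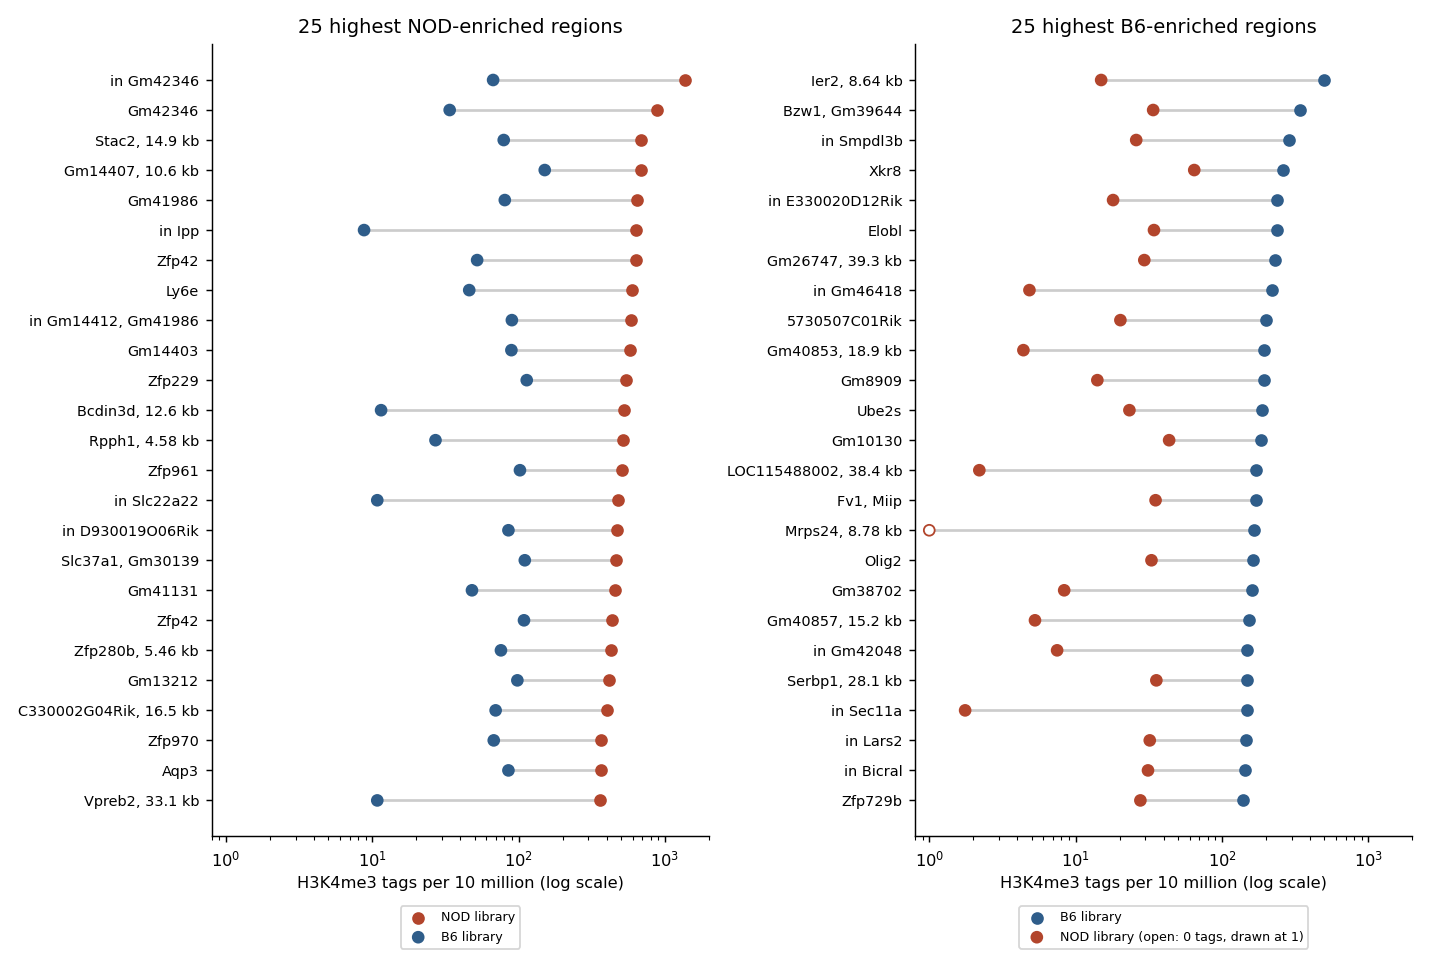
H3K4me3 signal in both libraries (tags per 10000000, log scale) at the 25 highest NOD-enriched regions (left) and the 25 highest B6-enriched regions (right), 1 row per region and 1 dot per library. A gene name alone has a start within 1 kb, "in" names the gene around the centre, and a distance gives the nearest start. NOD signals run from 1369.6 to 360.9 and B6 signals from 494.2 to 139.9, and the row with an open dot had 0 NOD tags.

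The B6 list was led by different genes and lower signals. Its highest region, chr8:84652765-84655656, was intergenic, 8.64 kb from Ier2, an immediate early gene. It held 731 B6 tags and 34 NOD tags, signals of 494.2 and 14.9 with a ratio of 33.1 (23.5 to 48.1). At the shared start of Bzw1, a regulator of translation, and the noncoding Gm39644 the signal was 340.1 in B6 and 33.9 in NOD with a ratio of 10.1 (7.89 to 12.9). A pair of regions lay at neighbouring genes on chromosome 4. One, in an intron of Smpdl3b, a sphingomyelin phosphodiesterase-like gene, had 286.0 in B6 and 25.9 in NOD. The other, at the start of Xkr8, a phospholipid scramblase, had 263.0 and 64.6. With a region at Sfn, which encodes 14-3-3 sigma (103.4 in B6 from 153 tags, and 23 NOD tags), they made up 3 of the 100 highest within 0.870 Mb.

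Regions of proximal chromosome 12 came next. 5730507C01Rik, a C2H2 gene, had a signal of 198.8 in B6 and 20.2 in NOD at chr12:18514368-18515865, a ratio of 9.83 (7.19 to 13.7). Gm38702 had 160.2 and 8.35, a ratio of 19.19 (12.02 to 32.4), and Gm9257 had 193 B6 tags and 23 NOD tags. Intergenic regions of the same stretch had 194.7 in B6 and 4.40 in NOD, 171.7 and 2.20, and 152.1 and 5.28. In all of these the B6 signal was more than 8-fold above the NOD signal.

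Between 5730507C01Rik and Gm21297, a stretch of 5.74 Mb chosen after its values were seen, the B6 list had 22 regions and the NOD list 17. The B6 list had 11 of its 100 highest regions there and the NOD list had 0. The highest NOD-enriched region of the stretch had a signal of 166.6, just under the 168.3 of the last of the 100 highest. Just outside the stretch, at chr12:18135371-18136461, a NOD-enriched region had 305.9 in NOD and 60.9 in B6, above every B6-enriched one inside. Its CpG ratio was 0.858 and 4.77% of it was masked as repeat, and it too was chosen after its values were seen. CpG-rich regions of proximal chromosome 12 were thus not limited to the B6 list. The 11 B6-enriched regions had an observed over expected CpG ratio of 0.517 or more in the 300 bp around their centre, with a median of 0.931. At most 6.12% of any of them was masked as repeat. The 17 NOD-enriched regions of the stretch had a median CpG ratio of 0.189. All of chromosome 12 held 14 of the 100 highest B6-enriched regions and 3.59% of the whole list. For NOD these were 5 regions and 4.07%.

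Other gene starts among the 25 highest B6-enriched regions were of mixed function. Gm8909, a class I gene of the major histocompatibility complex (MHC), had a signal of 194.7 in B6 and 14.1 in NOD with a ratio of 13.8 (9.59 to 20.6). Ube2s, a ubiquitin-conjugating enzyme of the anaphase-promoting complex, had 186.6 and 23.3. Elobl, an elongin B-like gene, had 237.3 and 34.3. Olig2, a transcription factor of neural progenitors, had 161.6 and 33.0. Fv1, a restriction factor against murine leukaemia viruses, shared its region with the start of Miip and had 169.7 in B6 and 35.2 in NOD with a ratio of 4.83 (3.74 to 6.29). The C2H2 genes Gm10130 (185.2 and 43.5) and Zfp729b (139.9 and 27.7) had ratios of 4.26 (3.37 to 5.41) and 5.05 (3.79 to 6.81).

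Regions of the B6 list away from a start included several with almost no NOD tags. One on chromosome 11, 8.78 kb from Mrps24, had 243 B6 tags and 0 NOD tags. With 3 tags taken as the floor of the NOD library the ratio was 124.6, and its exact lower limit from the 0 tags was 100.6. An intronic region of Sec11a, a signal peptidase subunit, had 219 B6 tags and 4 NOD tags, a ratio of 84.2 (32.4 to 311.8). One in an intron of Gm46418 had 323 B6 tags and 11 NOD tags. The remaining intragenic ones lay in E330020D12Rik (signals of 238.0 in B6 and 18.0 in NOD), Lars2, a mitochondrial leucyl-tRNA synthetase (145.4 and 32.1), Bicral (143.3 and 31.2) and Gm42048 (148.7 and 7.47). Those between genes lay 39.3 kb from Gm26747 (231.2 and 29.5) and 28.1 kb from Serbp1 (148.1 and 35.6).

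Zinc-finger clusters of chromosomes 4 and 13 appeared in both lists. Between chr4:146941891 and chr4:147869826 the B6 list had 16 regions, 3 of them among its 100 highest, and the NOD list had 33, with a highest signal of 357.8. Gm13140 (155 B6 tags and 9 NOD tags), Gm13135 (113 and 34) and Fv1 with Miip were the B6-enriched genes among the 100 highest. Gm13140 and Gm13135 are annotated as pseudogenes, and 0 of these 3 regions lay at the start of a C2H2 gene. Of the 13 protein-coding genes of the stretch, 11 encode C2H2 proteins. On chromosome 13, 22 of 26 protein-coding genes between chr13:66563080 and chr13:67610424 encode such proteins. There the B6 list had 10 regions, including Zfp874a (108.2 from 160 B6 tags, and 52 NOD tags) and Zfp729b, and the NOD list had 14. A stretch of chromosome 5 held 3 of the 100 highest B6-enriched regions and 0 C2H2 genes, with starts of Acacb, an acetyl-CoA carboxylase (125.1 in B6), and Pla2g1b, a secreted phospholipase (112.2). Regions of the other list were looked for nearby. Of the 100 highest, 43.0% (33.1 to 53.3) in NOD and 61.0% (50.7 to 70.6) in B6 had a region of the other list within 100 kb, beside 51.0% and 58.7% over the whole lists. Within 5 kb these shares were 3% (0.623 to 8.52) in NOD and 14.0% (7.87 to 22.4) in B6, beside 4.83% and 7.34% (6.76 to 7.95) over the whole lists, and these B6 intervals overlapped narrowly.

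The shares of classes changed along the ranking. A TSS lay within 1 kb of 51.0% (40.8 to 61.1) of the 100 highest NOD-enriched and 50.0% (39.8 to 60.2) of the 100 highest B6-enriched regions, and of 20.2% and 18.8% of all regions. Below rank 5000 the share was 11.2% (10.4 to 11.9) and 10.8% (9.65 to 12.1). In the next class of the B6 list, after the 100 highest and down to rank 500, it was 59.2% (54.3 to 64.1), and the interval overlapped that of the 100 highest. Noncoding, pseudogene or predicted genes alone were at 16.0% (9.43 to 24.7) of the 100 highest in NOD and 24% (16.0 to 33.6) in B6, against 5.55% and 4.91% of all regions. Regions of 1 kb or more made up 95% (88.7 to 98.4) and 71.0% (61.1 to 79.6) of the 100 highest and 6.82% and 2.35% of all, a property that the signal, a sum over the region, includes.

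**Figure D2:**
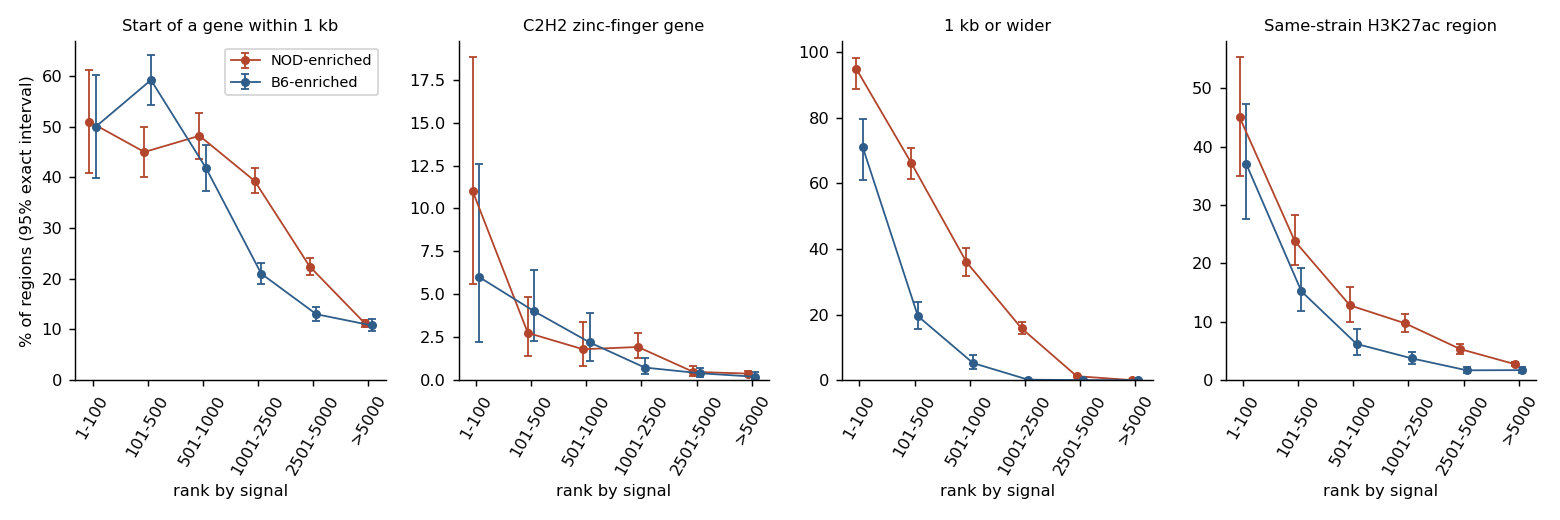
Percent of regions (y axis, dots with exact 95% intervals) in 6 rank classes by signal (x axis) that have a gene start within 1 kb, a C2H2 zinc-finger gene at the start, a width of 1 kb or more, or an overlap with an H3K27ac region of the same strain. NOD-enriched regions are red and B6-enriched regions blue, and the share with a same-strain H3K27ac region falls from 45.0% to 2.71% in NOD and from 37.0% to 1.71% in B6.

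H3K27ac was measured in separate libraries, which the ranking did not use. Of the 100 highest NOD-enriched regions 45.0% (35.0 to 55.3) overlapped a NOD-enriched H3K27ac region by at least 1 bp and 0 overlapped a B6-enriched one (exact upper limit 3.62%). Of the 100 highest B6-enriched regions 37.0% (27.6 to 47.2) overlapped a B6-enriched and 1 a NOD-enriched H3K27ac region. Over the whole lists the same-strain shares were 5.65% (5.24 to 6.08) and 3.59% (3.18 to 4.04). The other-strain shares were 0.888% (0.727 to 1.07) and 0.532% (0.38 to 0.724). The 0 and 1 found among the 100 highest were therefore near the shares of the whole lists. The same-strain shares depended on width and on the overlap asked for. Ranked by signal per kb of width, the 100 highest had 23% (15.2 to 32.5) in NOD and 27% (18.6 to 36.8) in B6. Where the overlap had to cover 0.5 of the H3K4me3 region, 26.0% (17.7 to 35.7) and 18% had one.

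Strong regions with few tags in the other library were compared with the other strong regions. A ratio of at least 10, a limit set after the values were seen, was found in 33 of the 100 highest NOD-enriched and 35 of the 100 highest B6-enriched regions. Over the whole lists 17.84% of NOD-enriched and 34.29% of B6-enriched regions had such a ratio. The B6 count was thus near the share of its list. Of the 33 NOD-enriched ones 8 (24.2%, 11.1 to 42.3) were at a TSS, against 43 of the other 67 (64.2%, 51.5 to 75.5). A same-strain H3K27ac region overlapped 24 of the 33 (72.7%, 54.5 to 86.7) and 21 of the 67 (31.3%, 20.6 to 43.8). Their median repeat content was 36.9% and 20%, and their median width was 3022 and 2220 bp. In B6, 14 of the 35 (40.0%, 23.9 to 57.9) were at a TSS against 36 of 65 (55.4%, 42.5 to 67.7), and 17 of the 35 (48.6%, 31.4 to 66) had a same-strain H3K27ac region against 20 of 65 (30.8%, 19.9 to 43.4). The B6 shares lay closer together than the NOD shares and their intervals overlapped in both cases. The B6 median widths were 1704 bp for the 35 and 1177 bp for the 65. Whether the lists differ in this split was not tested, nor was the part of width in it.

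Where a start was present, the region centre lay mostly on the gene side of it. Of the 51 NOD-enriched regions at a TSS among the 100 highest, 33 (64.7%, 50.1 to 77.6) had their centre downstream, with a median offset of 303 bp. Of the 50 in B6, 37 (74.0%, 59.7 to 85.4) did, with a median of 242 bp. Over the whole lists 62.1% and 60% lay downstream. In NOD, 35 of the 51 centres were more than 500 bp from the start, against 21 of 50 in B6. Over the whole lists these were 1316 of 2384 in NOD and 601 of 1410 in B6. The regions at a start among the 100 highest had a median width of 2020 bp in NOD and 1168.5 bp in B6. The part of width in these distances was not tested.

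**Figure D3:**
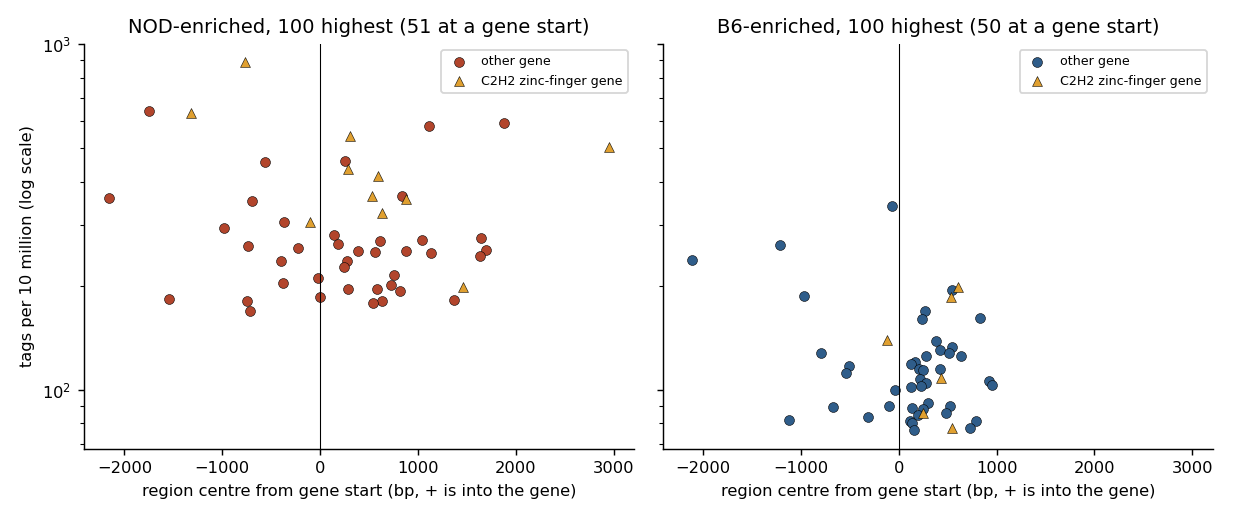
Signal (y axis, tags per 10000000, log scale) against the distance of the region centre from the closest gene start (x axis, bp, positive into the gene) for regions at a start among the 100 highest of each list, 1 point per region, with C2H2 genes as triangles. There are 51 NOD-enriched points, 33 on the gene side, and 50 B6-enriched points, 37 on the gene side.

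The CpG content of the strongest regions depended on how they were ranked. The median observed over expected CpG ratio in the 300 bp around the centre was 0.285 (0.208 to 0.372) in the 100 highest NOD-enriched and 0.431 (0.367 to 0.517) in the 100 highest B6-enriched regions. The intervals overlapped by little, and the whole lists had closer values of 0.231 and 0.237. Ranked by signal per kb of width, the order turned, with 0.468 (0.386 to 0.561) in NOD and 0.432 (0.392 to 0.517) in B6. Promoter entries of 300 bases had a median of 0.384. Repeat content had a median of 23.4% (20 to 28.3) of the region in NOD and 18.4% (11.6 to 23.2) in B6, against 16.9% and 16.2% over all. The GC-box letters GGGCGG were found on either strand in 11% (5.62 to 18.8) of the NOD and 22% (14.3 to 31.4) of the B6 windows, and in 10.1% and 11.1% of all windows. The TATA letters TATAAA were found in 19% and 14.0%, and in 19.9% of all windows in either list.

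**Figure D4:**
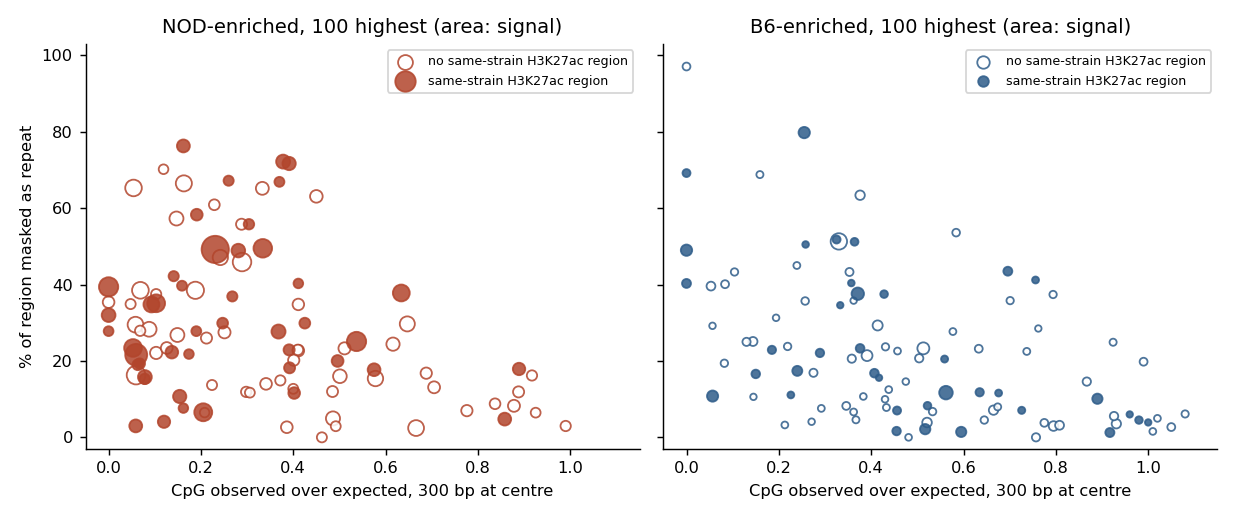
Percent of each region masked as repeat in the reference (y axis) against the CpG observed over expected ratio at its centre (x axis) for the 100 highest regions of each list, 1 circle per region with its area scaled to signal and filled where an H3K27ac region of the same strain overlaps. The median CpG ratio is 0.285 in NOD and 0.431 in B6 (0.468 and 0.432 when ranked per kb), and the B6 group at the lower right includes the chromosome 12 regions with a median of 0.931.

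Gene lists of ES cell biology, lineage, immunity and chromatin were then counted. Of 495 autosomal genes in 26 lists, 86 (17.4%) had a NOD-enriched region within 1 kb of a TSS and 43 (8.69%) a B6-enriched one, beside the backgrounds of 8.71% and 5.46% over all protein-coding genes. Many of the listed genes have CpG-rich promoters, and no list was tested. Core pluripotency genes had 4 of 10 in NOD and 0 of 10 in B6. The NOD signals were 81.3 near Lin28a, an RNA-binding inhibitor of let-7 (13.5 in B6), and 59.8 near Sox2 (12.9 in B6). Near Pou5f1 the signal was 48.4 (110 NOD tags and 0 B6 tags), and near the corepressor gene Trim28 it was 31.6 (3.38 in B6). The region edges lay 630 bp (Lin28a), 745 bp (Sox2), 869 bp (Pou5f1) and 359 bp (Trim28) from the start. These 4 regions thus do not cover the start itself, where the lists say nothing of a difference. Among 18 naive genes, Zfp42, Fbxo15 (38.7 and 3.38) and Nr5a2 (28.6 and 2.03) had NOD-enriched regions and Esrrb (18.9 in B6 and 3.96 in NOD) a B6-enriched one. At the 13 formative and primed genes there were 3 in NOD, including T (28.1 and 6.76) and Pou3f1 (19.8 and 2.03), and 2 in B6, including Otx2 (24.3 and 2.64). Apart from Zfp42, these signals were below those of the 100 highest regions.

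Imprinted genes had 14 of 37 with a NOD-enriched region and 1 of 37 with a B6-enriched one. Inpp5f, an inositol phosphatase gene with an imprinted transcript variant, had 163.1 in NOD and 32.5 in B6 with a ratio of 5.03 (3.71 to 6.94). Meg3, a maternally expressed noncoding RNA, had 133.6 and 21.0, and its paternally expressed neighbour Dlk1 had 81.3 and 18.3. Airn, the antisense RNA of Igf2r, had 87.0 and 17.6. Cdkn1c was in both lists, with 22.3 from 33 B6 tags in the B6 list. The median signal of the 14 was 29.4.

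Hox genes had 14 of 39 in NOD and 3 of 39 in B6. A region shared by Hoxd10 and Hoxd11 had 103.3 in NOD and 18.9 in B6 with a ratio of 5.46 (3.68 to 8.39), followed by Hoxd9 (76.9 and 18.3) and Hoxa10 (60.2 and 14.9). The B6-enriched ones were lower, with 18.3 at Hoxc11, 13.5 at Hoxb7 and 8.11 at Hoxc4. Of 19 lineage transcription factor genes 4 had a NOD-enriched region and 0 a B6-enriched one. Hand2, a regulator of heart and limb development, had 195.6 and 36.5, a ratio of 5.36 (4.03 to 7.25), and Gsc, Neurog2 and Pax6 had NOD signals of 65.5, 63.3 and 19.3.

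Extraembryonic genes appeared on both sides. Of 13 trophectoderm genes 5 had a NOD-enriched region, led by the keratin genes Krt8 (122.6 and 17.6) and Krt18 (85.3 and 10.8), Tfap2a (47.5 and 3.38) and Gata2 (29.0 and 6.09), and 2 a B6-enriched one, Gata3 and Krt7 (11.5 in B6). Of 14 primitive endoderm genes each list had 3. The NOD ones were led by Gata6 (66.8 and 10.1) and Gata4 (51.9 and 10.8), the B6 ones by Sparc (49.4 in B6 and 8.79 in NOD) and Lama1 (18.9 and 3.08), and Foxa2 was in both. Of 15 feeder genes 0 had a NOD-enriched region, and Vim (18.3 in B6) and Col1a1 (17.6) a B6-enriched one. Germline genes had 2 of 25 in NOD, Rpl10l (36.9) and Dazl (11), and 3 in B6, Rnf17 (75.7), Zcwpw1 (31.1) and Sycp3 (19.6). The two-cell stage list had 0 of 21 in NOD and 2 in B6, Sp110 (15.5) and Usp17le (14.2).

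Immune genes were listed in both strains. The MHC class I list had 4 of 25 in B6, with Gm8909 far above H2-M3 (20.3), B2m (12.2) and H2-Q7 (11.5), and 2 in NOD, the class I transactivator gene Nlrc5 (37.4 in NOD and 2.03 in B6) and H2-Bl (11). A B6-enriched region at the start of 2410017I17Rik and Gm10499, beside Gm8909, had 125.1 in B6 and 14.9 in NOD. The stretch from 2410017I17Rik to Gm8909, 0.0268 Mb long and chosen after its values were seen, had 5 B6-enriched and 0 NOD-enriched regions. Over the whole B6 list 7.34% of regions had a NOD-enriched one within 5 kb, so 0 in so short a stretch is common. Of 12 class II genes H2-Eb1 (55.8 and 4.06) alone was listed at its start, in NOD. A second NOD-enriched region, in an exon of H2-Eb1 3.98 kb from the start, had 147.7 in NOD and 24.34 in B6 and overlapped a NOD-enriched H3K27ac region. Of 27 innate genes, Mavs had 22.9 in NOD, and Nod1 and Lrrfip1 had 37.2 and 29.7 in B6. In an intron of Nod1, 7.8 kb from the start, a stronger B6-enriched region had 79.1 in B6 and 7.03 in NOD. Of 16 cytokine and chemokine genes, Lif had 6.59 in NOD from 15 tags against 1, and 0 had a B6-enriched region. Osm, a cytokine gene outside that list, had 145.1 in NOD and 28.39 in B6 at its start, and like the H2-Eb1 exon and Nod1 intron it was chosen after its values were seen. Type 1 diabetes genes had 5 of 18 in NOD, with Rnf43, a ubiquitin ligase that dampens WNT signalling, at 182.4 and 25.0, Zfp982 at 133.6 and 12.9, Crygd at 110.3 and 10.1 and Igfbp2 at 17.1 and 2.03. There were 2 in B6, Zfp982 (62.9 in B6 and 14.9 in NOD, at another start of the gene) and Fcgr3 (23.7). This list was drawn up with the genes the study names in view. All 5 of its NOD-enriched genes, including Pcmtd1 (13.2), are genes that the study presents as raised in NOD cells. The count of 5 is therefore not independent of the study. Fcgr3 went the other way. The study presents its H3K27ac as higher in NOD cells, while its H3K4me3 region at the start had 35 B6 tags and 0 NOD tags. Crygd is a lens crystallin gene that the study names in connection with cataract.

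Among chromatin genes, 5 of 15 genes for H3K4 methyltransferases, their partner subunits and H3K4 demethylases had a NOD-enriched region and 0 a B6-enriched one. Setd1b, a SET1 methyltransferase gene that shares its region with Rhof, had 236.0 and 56.1, a ratio of 4.21 (3.33 to 5.37), and the methyltransferase gene Kmt2b had a NOD signal of 18.5. Ash2l and Men1, subunits of these complexes, had NOD signals of 23.3 and 21.1, and Kdm5b, a demethylase, had 19.8. DNA methylation genes had 3 of 19 in NOD, namely Tet3 (16.7), Dnmt3a (13.2) and Apobec1 (11), and 4 in B6, namely Mbd4 (35.2), Uhrf1 (24.3), Tet3 (14.2) and Dnmt3a (11.5). Of 19 heterochromatin genes Trim28 and Cbx5 (30.3) were NOD-enriched and 0 were B6-enriched. Histone genes had 11 of 29 in NOD, up to 52.7 at H4c8, 21.1 at H4c1 and 19.3 at H1f1 and H3c1, and 3 in B6, H3c6 (45.3) and a region shared by H2ac7 and H3c4 (13.5). Neighbouring histone and Hox genes share regions, so their counts are not independent.

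The smaller lists closed the count. Crxos, a homeobox gene of the early embryo, was the 1 listed gene of 10 Obox and Crx genes, with 214.9 in NOD and 7.44 in B6 with a ratio of 28.9 (16.0 to 58.3). Ly6e was the 1 gene listed of 16 in the Ly6 family. Crystallin genes had 3 of 20 in NOD, Crygd, Crygc (17.6) and Cryga (13.2), and Crym (10.1) in B6. The list of polymerase III and small nuclear RNA genes had 0 of 12 in NOD and 4 in B6. Of these 4, Rpph1 and Parp2 shared a region of 23.7, and Rny3 and Rn7sk had 14.2 and 9.46. Parp2 is a protein-coding gene and not a polymerase III gene, so the count of 4 overstates the list. Detoxification genes had 0 of 16 in NOD and 4 in B6, namely Nqo1 (48.0), Gsto1 (28.4), Aldh1a1 (17.6) and Gstm2 (17.6). Of 28 signalling feedback genes Rnf43 and Sp5 (10.1 in NOD, with 0 B6 tags) were NOD-enriched and Dusp6 (11.5 in B6, with 0 NOD tags) B6-enriched.

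**Figure D5:**
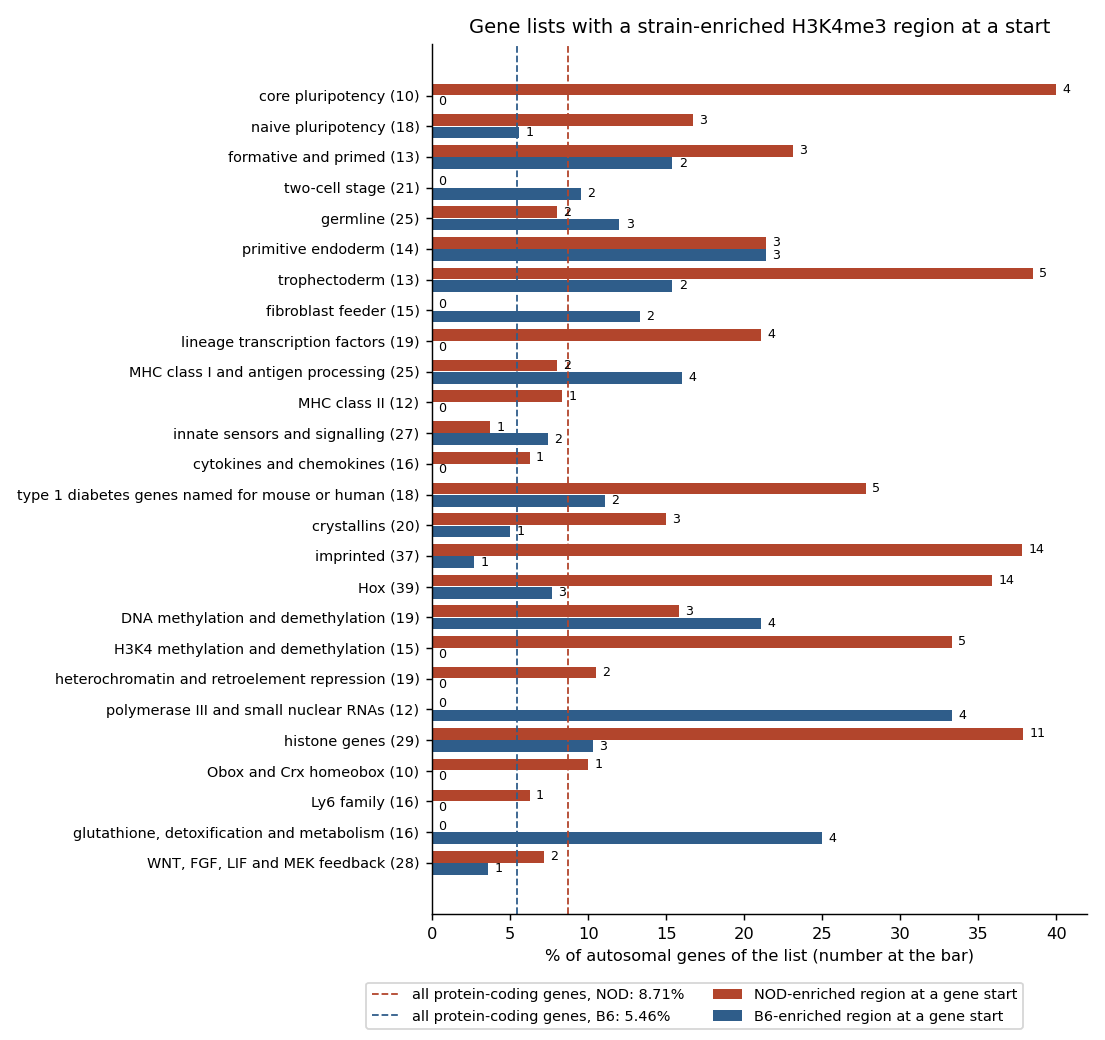
Percent of the autosomal genes of each list (x axis, number in brackets at the list name) with a NOD-enriched (red) or B6-enriched (blue) H3K4me3 region within 1 kb of a start, with the number of genes at the bar. Dashed lines mark the share over all protein-coding genes, 8.71% for NOD and 5.46% for B6, and the imprinted, Hox and histone lists have 14, 14 and 11 genes in NOD.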

How the data were processed

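ChIP-Seq of H3K4me3 in B6 and NOD ES cells gave 1 library per strain, and the same strains with H3K27ac 1 library each. Reads were mapped to mm10, a B6-derived genome, with bowtie2 and analysed with HOMER according to the methods. The submitters' processing notes also name CASAVA 1.8.2, STAR 2.2.0c, HOMER and mm9. All positions here fit the chromosome lengths of GRCm38, which is mm10. The deposited signal of the H3K4me3 lists is the tag number per 10000000 tags. The deposited counts are tags scaled to the smaller library, from which whole tags were recovered (every signal within 0.0500). The deposited H3K27ac score is the difference between strains on an unstated scale and served to define regions only. Fold and p-value columns of the authors compare the 2 libraries and were not used. How tags from repeated sequence were treated was not given in the sources used here.

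Genes, starts and repeats were those of RefSeq GRCm38.p6. Ratios with exact binomial intervals were computed in Python 3.11.15 using scipy 1.17.1, pysam 0.24.0, biopython 1.88, pandas 2.3.3 and numpy 2.4.6, and functions were tested on simulated data. With 1 library per strain no test was made. The genes named were those at the 25 highest regions of each list, up to 4 per gene list and strain with the highest signal, and clusters with at least 3 of the 100 highest regions no more than 1 Mb apart. Zfp985, 2410018L13Rik, Gm21297, 2410017I17Rik, Kmt2b and Osm were chosen after their values were seen. Members and lists were chosen with earlier results of these data known. Of 100 highest regions, 51 NOD-enriched and 50 B6-enriched had a gene start, of which 45 and 38 matched a promoter entry.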

Additional observations from a re-analysis of the deposited data

Results flagged for a closer look

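Regions outside chromosomes 1 to 19 entered no comparison. The highest B6-enriched region of all lay on the mitochondrial genome, at positions 192 to 2547, with a signal of 1281.2 from 1895 B6 tags and 185 NOD tags, and the B6 list had 3 such regions and the NOD list none. On chromosome X the highest NOD-enriched region had a signal of 184.6 and lay 19 kb from Tsix, and the highest B6-enriched one had 62.2 at Rragb. On chromosome Y these were 198.7 at Eif2s3y in NOD and 52.1 in B6, the latter 53.2 kb from 1700020D14Rik with 77 B6 tags and 0 NOD tags.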

How the results depend on the processing

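Of the 118 values recomputed under other settings, 90 stayed within the interval of the reported value, or within 1.5 times a count, and 28 moved. Ranking by signal per kb of width put 69.0% of NOD-enriched and 68.0% of B6-enriched top regions at a TSS, left 34.0% and 20% of them at 1 kb or wider, put 23% and 27% over a same-strain H3K27ac region and gave a CpG ratio of 0.468 in NOD and 0.432 in B6, which turns the order of the lists. It kept 34 of the 100 highest NOD-enriched and 48 of the 100 highest B6-enriched regions. Ranking by the HOMER score of the regions kept 28 and 34, and ranking by signal minus that of the other strain kept 95 and 92. The genes named at the highest regions therefore depend on the ranking. With regions of at least 8-fold alone, the NOD shares were 23% at a TSS, 3% at a C2H2 gene and 58.0% over a same-strain H3K27ac region, and the B6 shares were 58.0% for wide regions and 49% for the H3K27ac overlap. Where the overlap had to cover 0.5 of the H3K4me3 region, it was found for 26.0% in NOD and 18% in B6. A TSS within 5 kb was found for 63.0% and 66%, and one inside the region for 37.0% and 39.0%. Among the 50 highest, C2H2 genes were at 20% in NOD and wide regions were 82.0% in B6. Among the 200 highest, wide regions were 87.5% in NOD and 49% in B6. Genes of the fixed lists numbered 146 in NOD and 71 in B6 within 5 kb, 32 and 13 with the TSS inside, and 26 and 15 at 8-fold. The cause of these changes was not tested, apart from width, which the ranking per kb divides out by construction. No paired analysis was possible because each strain had 1 library. The 100th region held 113 tags in B6 and 383 in NOD, and fewer tags give wider intervals of a ratio.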
